A study of Rattus norvegicus with 6 samples.

Results

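The genes described here are 10 genes of the brain's macrophages and of the first complement component: Aif1, Itgam, Cd68, Csf1r, Cx3cr1, Ptprc, Cd74, and the C1q chain genes C1qa, C1qb and C1qc. They were chosen by name, and their probes were taken where the gene name printed by the array matched, which found 9 of the 10 genes with 13 of 41012 probes. C1qc had no probe under that name. Its transcript accession led to 2 probes filed under the older symbol C1qg, and accessions added 1 more probe of Csf1r, so 16 probes cover all 10 genes. None of the 16 was printed in more than 1 spot (0 probes). The values below are those of all 16 unless the 13 are named.

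RNA was taken from the hippocampus of male Wistar rats, 11 weeks old at the start. Control rats (CONT) rested on the treadmill, rats of the mild exercise group (ME) ran at 15 m/min, below the lactate threshold, and rats of the intense exercise group (IE) ran at 40 m/min, above it. Sessions lasted 60 min on 5 days per week for 6 weeks. Both exercise groups were habituated to running with slight electric shocks, over a longer period in IE than in ME. Later, some IE rats that balked at the set speed were given further foot shocks. Some IE rats were left out of the study for refusing to run. The sample records place the tissue 24 or 36 h after the last run. RNA of 5 rats was pooled per group, and the 3 pools were hybridized against each other in all 3 pairs on 2-colour Agilent arrays, each pair on 2 arrays with the dyes Cy3 and Cy5 exchanged. Each comparison therefore rests on 1 pool per group. The SD after a mean is the spread between the 2 arrays of a dye swap, which is technical. It includes a probe's own difference between dyes, which the mean cancels where it is alike on both arrays. The SD is therefore not the error of the mean. A test across rats cannot be made. The differences between animals of a group cannot be seen in pooled RNA. In whole tissue, fewer cells of a type and less RNA per cell cannot be told apart.

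Microglia are the resident macrophages of brain tissue and live on signals through the receptor Csf1r. They sense neurons through Cx3cr1, clear debris in lysosomes rich in Cd68, and in the healthy hippocampus are the main makers of C1q. C1q is built of A, B and C chains, each with a collagen-like stalk and a globular head. It binds immune complexes, apoptotic cells and synapses, and starts the classical complement pathway through its proteases C1r and C1s. Cd74, the invariant chain, escorts MHC class II molecules and is also a receptor for the cytokine Mif. Resting microglia carry little of it, while macrophages at the brain's borders and activated microglia carry more.

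The sequences of 3 of the 60-mer probes show what the arrays read for the C1q chains and for Cd74, which had the largest ME over CONT ratio of the members. The C1qc probe is printed whole, because it lies in the collagen-like stalk. Its capitals mark the glycine codons (GGN), 7 of 20 codons, each separated from the next by a pair of other codons, which is the repeat of a collagen helix. Only the last 30 bases of the C1qb probe are given, with the polyadenylation signal AATAAA in capitals. For Cd74 the first 30 bases are given.
C1qc A_44_P412290: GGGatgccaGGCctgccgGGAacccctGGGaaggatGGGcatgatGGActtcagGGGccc
C1qb A_42_P781919, bases 31 to 60: tgtagatgttacagaatgggtaAATAAAct
Cd74 A_44_P549494, bases 1 to 30: catttctgacccattagcagtctttaatgt

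In the coordinates of the array annotation (build rn3), the 5 C1q probes lie on the minus strand of chromosome 5 within 15.3 kb, between 155657575 and 155672865. In order along the chromosome they are C1qb (155657575 to 155657634), C1qc (155666677 to 155666736 for A_44_P500708 and 155669003 to 155669062 for A_44_P412290) and C1qa (155672617 to 155672676 for A_44_P487761 and 155672806 to 155672865 for A_44_P487764). The Cd74 probe lies on the plus strand of chromosome 18, from 56837700 to 56837759. Which exon or untranslated part each probe falls in was not analysed here.

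A probe was called different between 2 pools when Cy5/Cy3 reached 1.5 on 1 array and fell to 0.75 or less on the swapped one, with the scanner software's p below 0.01 each time. By this rule 0.122% of probes were called in ME vs CONT (50 of 40922), 0.0293% in IE vs CONT (12 of 40957) and 0.0732% in IE vs ME (30 of 41009). Of the members, 0 of 16 probes were called in any of the 3 comparisons. Over the 13 probes found by name, the median log2 ratio was 0.00 ± 0.07 in ME vs CONT, 0.02 ± 0.07 in IE vs CONT and -0.02 ± 0.09 in IE vs ME, where the SD is between the medians of the 2 arrays. The median over all probes was 0.00 in ME vs CONT and in IE vs CONT, and -0.00 in IE vs ME.

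Signals were good enough to read most members. A reading is 1 channel of 1 array, and 12 of 16 probes were well above background in all 12 readings by the software's test. These 12 probes stand for 9 of the 10 genes, all but Ptprc. Over all probes, 70.5%, 70.1% and 62.9% were well above background in all 4 readings, for ME vs CONT, for the IE vs CONT swap and for the IE vs ME swap in turn. No spot was saturated (0 on each array). Neuronal markers were present as the tissue label has it, with all 23 probes of 15 genes well above background, and astrocyte and oligodendrocyte markers with 20 of 21 probes each in ME vs CONT. The arrays of IE vs ME lay on a second slide. They had the widest gap between arrays, with a median SD of 0.155 among probes above background. For the swaps of ME and of IE against CONT it was 0.134 and 0.143.

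A real difference between pools changes dye when the dyes are exchanged. It puts both arrays on the same side of 0 only where it exceeds the probe's own difference between dyes. Where it is smaller, the arrays straddle 0, so opposite sides say nothing of such small ratios. Of the 13 probes, 2 were above 0 on both arrays in ME vs CONT, where the share among all probes was 12.8%, and 1 was below 0 on both, where it was 14.2%. In IE vs CONT the counts were 4 above, beside 13.5% of all probes, and 1 below, beside 13%. In IE vs ME they were 0 above, beside 11%, and 1 below, beside 12%. The 3 probes found only through accessions added none to these counts. The 2 arrays lay on opposite sides of 0 for 9, 8 and 12 of the 13 probes in turn, beside 25483 of 40922, 25956 of 40957 and 29613 of 41009 of all probes.

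**Figure D1:**
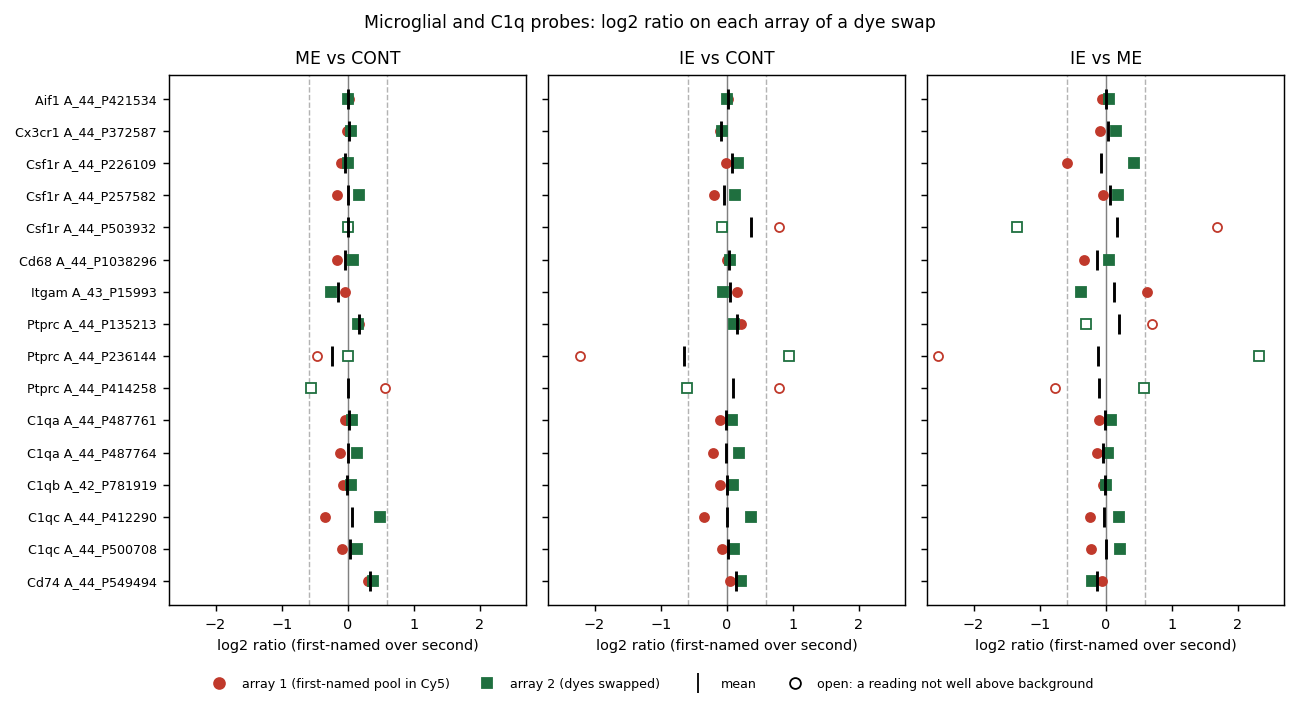
Log2 ratio of each of the 16 probes (rows, gene and probe name) on the 2 arrays of each dye swap, with the first-named pool over the second; circles are array 1, squares array 2, black ticks their mean, open symbols probes with a reading not well above background, and dashed lines mark 1.5-fold. The 2 Cd74 symbols of each swap are on the same side of 0, above it against CONT and below it in IE vs ME. The C1q symbols of the 2 arrays straddle 0.

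The 3 C1q chain genes had ratios near 1 in every comparison. Over 5 probes and 3 comparisons, the 15 mean log2 ratios ran from -0.05 to 0.06, or from 0.967-fold to 1.05-fold. The C1qb probe read 6411 to 7191 units on the first slide. ME over CONT was -0.07 on array 1 and 0.05 on array 2 (mean -0.01 ± 0.08). IE over CONT was -0.10 and 0.09 (-0.00 ± 0.13), and IE over ME was -0.04 and 0.00 (-0.02 ± 0.03). The arrays of each swap lay on opposite sides of 0, with Cy3 the brighter dye on each array. No mean exceeded its SD, which includes that dye difference.

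C1qa was read by 2 probes that lay close together and behaved alike. With ME over CONT, probe A_44_P487761 had -0.04 and 0.07 (0.01 ± 0.08) and probe A_44_P487764 had -0.12 and 0.13 (0.01 ± 0.18). With IE over CONT the values were -0.11 and 0.08 (-0.01 ± 0.13) for A_44_P487761, and -0.21 and 0.19 (-0.01 ± 0.28) for A_44_P487764. Directly compared, IE over ME was -0.01 ± 0.14 and -0.05 ± 0.12. Neither probe had both arrays of a swap on the same side of 0.

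C1qc gave the widest gap between arrays among the C1q genes. Its stalk probe A_44_P412290, shown above, had -0.35 and 0.48 for ME over CONT (0.06 ± 0.59), -0.35 and 0.37 for IE over CONT (0.01 ± 0.51), and -0.24 and 0.20 for IE over ME (-0.02 ± 0.31). Its other probe A_44_P500708 had -0.08 and 0.14 (0.03 ± 0.16), -0.08 and 0.11 (0.02 ± 0.13), and -0.22 and 0.21 (-0.00 ± 0.30). Read on array 1 alone, C1qc would look lower with exercise, and read on array 2 alone, higher. The stalk probe had the highest GC content of the 16, at 68.3% and a signal of 124 to 185 units on the first slide. Their part in its dye difference was not tested.

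All 5 C1q probes and 2 Csf1r probes were brighter in Cy3 than in Cy5 on all 6 arrays, whichever pool carried the dye. That makes 7 of the 12 member probes with full readings, and 0 of them were brighter in Cy5 throughout. Among the 24719 probes with full readings, 17.7% were brighter in Cy3 on all 6 arrays and 16.9% in Cy5. For the 7 member probes this dye difference put the arrays of every swap on opposite sides of 0. Their sides therefore say nothing of ratios smaller than the dye difference. The dye term, which is the mean log2 Cy5/Cy3 over both arrays of a swap, was -0.42 for the C1qc stalk probe in ME vs CONT, -0.36 for IE against CONT and -0.22 for IE against ME.

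**Figure D2:**
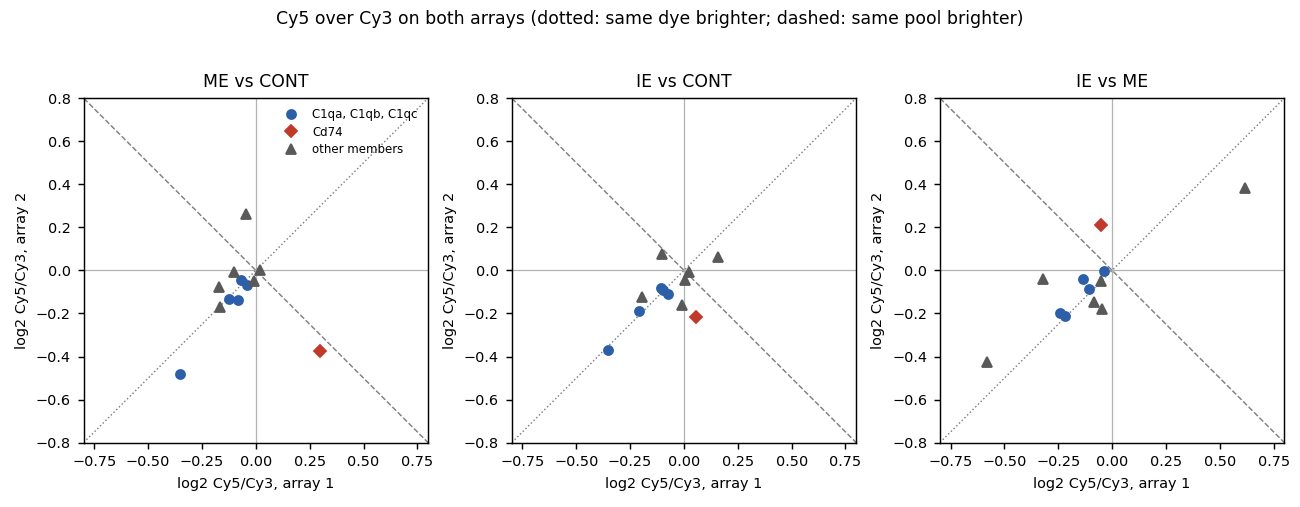
Log2 Cy5/Cy3 on array 2 against array 1 for the 12 member probes well above background in every reading, 1 panel per comparison; points on the dotted line have the same dye brighter on both arrays, and points on the dashed line the same pool. All C1q points (blue) are in the lower left, brighter in Cy3 on both arrays, and Cd74 (red) lies off the dotted line in all 3 panels.

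Because all 3 pairs of pools were hybridized, IE over ME can be had in 2 ways, directly and as IE over CONT minus ME over CONT. For the C1q probes both routes differed by at most 0.04 on the log2 scale. For the 12 probes with full readings the median difference was 0.05 and the largest 0.21, against a median of 0.06 over all probes above background. The routes share no array but share pools, so their likeness says nothing of the spread between rats.

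Aif1 encodes the actin-bundling protein Iba1 by which microglia are stained. Its signal was 4213 to 4541 units in the 8 readings of the first slide. ME over CONT was 0.02 and -0.00 (0.01 ± 0.02), IE over CONT was 0.02 and 0.01 (0.02 ± 0.01), and IE over ME was -0.05 and 0.05 (-0.00 ± 0.07). The 3 pools thus read within a few hundredths of each other on the log2 scale.

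Cx3cr1, the receptor for the neuronal chemokine Cx3cl1, read -0.01 and 0.05 for ME over CONT (0.02 ± 0.04) and -0.10 and -0.08 for IE over CONT (-0.09 ± 0.02). It was the only member below 0 on both arrays with IE, and this mean ran from -0.09 to -0.04 under the alternatives. With ME a joint fit of all 6 arrays turned the sign, to -0.03. The direct comparison did not follow, at -0.08 and 0.15 for IE over ME (0.03 ± 0.16). Its ligand Cx3cl1 had 2 probes at -0.01 ± 0.27 and 0.04 ± 0.53 with ME, and 0.02 ± 0.24 and 0.01 ± 0.56 with IE.

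Csf1r, the receptor that keeps microglia alive, had full readings at A_44_P257582 and A_44_P226109, the second of them dim. On the first slide they gave 605 to 710 and 67.2 to 137 units, on the second 305 to 356 and 21.7 to 52.5. For A_44_P257582, ME over CONT was -0.17 and 0.17 (0.00 ± 0.24), IE over CONT -0.19 and 0.12 (-0.04 ± 0.22), and IE over ME -0.05 and 0.18 (0.07 ± 0.16). For A_44_P226109 the values were -0.10 and 0.01 (-0.05 ± 0.08), -0.01 and 0.16 (0.08 ± 0.12), and -0.58 and 0.42 (-0.08 ± 0.71). No pair of arrays put either probe on 1 side of 0. The third probe, A_44_P503932, was above background in 1 of 12 readings and gives no usable ratio. The ligand Csf1 stayed close to 0, at 0.03 ± 0.18 and 0.03 ± 0.01 with ME and 0.01 ± 0.18 and 0.02 ± 0.02 with IE over its 2 probes, and Il34, the other ligand, had no probe found.

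Cd68, a lysosomal glycoprotein of phagocytes, read -0.17 and 0.08 for ME over CONT (-0.05 ± 0.17), 0.01 and 0.05 for IE over CONT (0.03 ± 0.03), and -0.32 and 0.04 for IE over ME (-0.14 ± 0.26). The direct ratio and the one through CONT differed by 0.21, the largest gap among the members with full readings.

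Itgam, the alpha chain of complement receptor 3 (CD11b), read 83.5 to 104 units on the first slide. ME over CONT was -0.04 and -0.26 (-0.15 ± 0.15), the only member below 0 on both arrays with ME. IE over CONT was 0.16 and -0.06 (0.05 ± 0.16), and IE over ME was 0.62 and -0.38 (0.12 ± 0.71). None of these means exceeded its SD, which includes the probe's dye difference. Itgb2, the beta chain that pairs with it, read 0.42 and -0.61 (-0.09 ± 0.72) with ME and -0.01 ± 0.70 with IE.

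The 3 probes of Ptprc, the phosphatase CD45 of all leukocytes, disagreed. Probe A_44_P135213 had 0.17 and 0.16 for ME over CONT (0.16 ± 0.01, 1.12-fold) and 0.21 and 0.11 for IE over CONT (0.16 ± 0.07), above 0 on all 4 arrays. Over the main and alternative processing these means ran from 0.04 to 0.16 with ME and from 0.05 to 0.22 with IE. The 0.22 came from the joint fit of all 6 arrays. The narrow SD with ME therefore does not cover the choice of processing. On the second slide 2 of its 4 readings missed the background test, and IE over ME was 0.69 and -0.30 (0.20 ± 0.70). Probe A_44_P414258 read 0.00 ± 0.80 with ME and 0.09 ± 0.99 with IE, with 7 of 12 readings above background. Probe A_44_P236144 had 1 reading above background, and its arrays for IE over ME read -2.54 and 2.31. The first probe spans 55037 bases of rn3 between 51316811 and 51371847 of chromosome 13, so it crosses introns, while the other probes lie in single blocks nearer the gene's 3′ side. Markers of blood leukocytes, the other CD45 cells of whole tissue, were mostly under the background test, with 6 of 24 probes above it with ME, 5 of 25 with IE and 6 of 25 in IE vs ME. Over the probes above background the medians were -0.05, -0.01 and 0.17.

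Cd74 had the largest ME over CONT ratio of the members. On the first slide its probe read 187.6 units in CONT against 230.7 in ME on array 1, and 192.3 against 249.5 on array 2. ME over CONT was therefore 0.30 and 0.38 (0.34 ± 0.05, 1.26-fold), and 1.01% of probes above background were at least as high. For IE, CONT read 197.8 and IE 205.5 on array 1, and 186.3 and 216.6 on array 2, which gave 0.06 and 0.22 (0.14 ± 0.11). On the second slide ME read 162.1 and 174.9, and IE 156.3 and 151.2, so IE over ME was -0.05 and -0.21 (-0.13 ± 0.11, 0.913-fold).

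The order ME over IE over CONT held for Cd74 on all 6 arrays. This order was read from these same values and is a description of them. Through CONT, IE over ME was -0.20, or 0.07 lower than the direct value. Over the main and alternative processing, ME over CONT stayed between 0.22 and 0.34 and IE over CONT between 0.10 and 0.16. IE over ME stayed between -0.15 and -0.04. The 0.16 and the -0.15 came from the joint fit of all 6 arrays. Without Cd74 the other 11 member probes with full readings ran from -0.15 to 0.06 with ME and -0.09 to 0.08 with IE. In IE over ME they ran from -0.14 to 0.12. Cd74 was below the call limit throughout, and with 1 pool per group its difference cannot be set against the spread between rats.

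**Figure D3:**
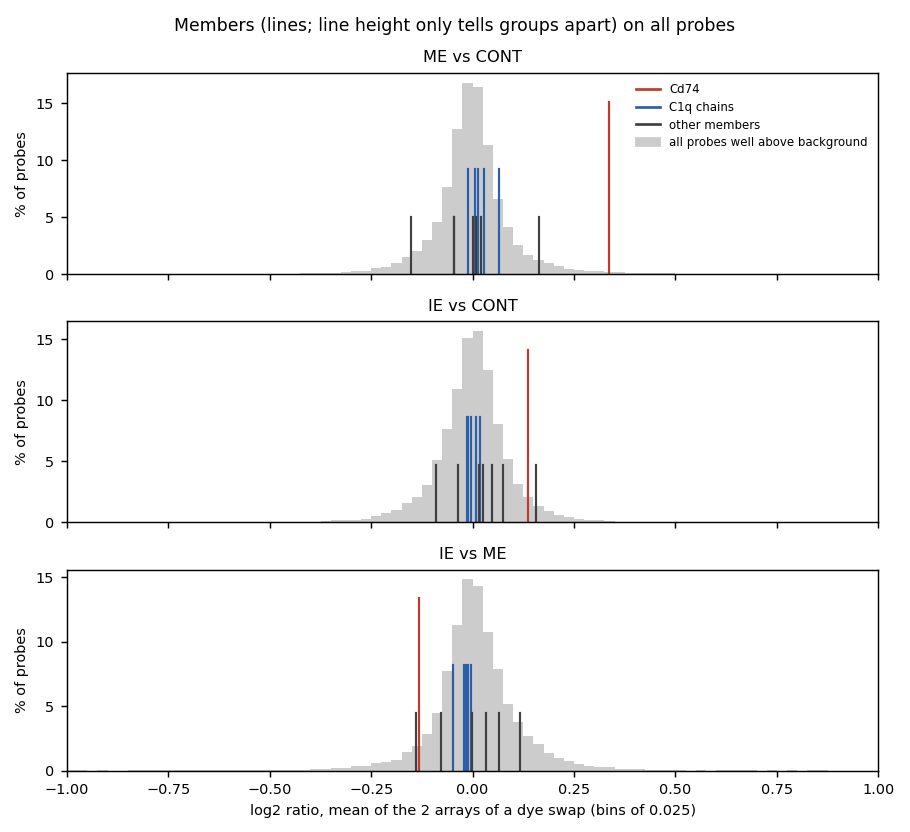
Mean log2 ratio of member probes well above background (lines, with heights that only tell the groups apart) over the distribution for all probes well above background (grey bars, percent of probes per bin of 0.025 log2), 1 panel per comparison. Cd74 (red) is at 0.34, 0.14 and -0.13, and the C1q chains (blue) sit in the middle of the distribution in each panel.

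**Figure D4:**
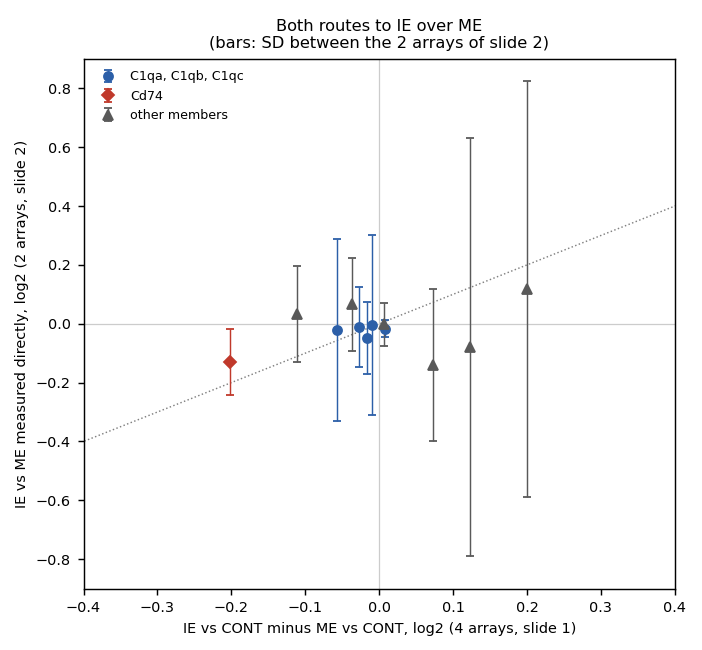
IE over ME by both routes for the 12 member probes with full readings. The y axis is the log2 ratio measured on the 2 arrays of the second slide, with bars for the SD between arrays. The x axis is IE over CONT minus ME over CONT, log2, from the 4 arrays of the first slide. The dotted line is equality. Cd74 (red) is at -0.20 and -0.13, the C1q chains (blue) cluster at 0, and the bars of the other microglial probes reach across 0.

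The partners of Cd74 were examined next. Of 14 listed genes of MHC class II and its loading, 12 had a probe, and 0 of their 18 probes were called. The median over the list stood at 0.05 with ME, at -0.01 with IE and at -0.07 for IE over ME. Over the 10, 10 and 9 probes well above background the medians were 0.05, 0.02 and -0.06 in turn. In ME vs CONT 6 of 18 probes were above 0 on both arrays, beside 12.8% of all probes, and 1 below, beside 14.2%. In IE vs ME 0 were above, beside 11%, and 5 below, beside 12%. Some class II genes are named here after their values were seen. RT1-Bb, a beta chain, had 0.47 and 0.40 with ME (0.43 ± 0.04) and -0.52 ± 0.10 in IE over ME at probe A_44_P552452, but -0.03 ± 0.28 with ME at its other probe, A_44_P500803. RT1-Da, an alpha chain, had 0.51 and 0.23 (0.37 ± 0.20) with ME at A_44_P991532. RT1-DMa, which edits the peptides loaded on class II, read -0.05 on both arrays with ME. RT1-Da probe A_44_P367688 read 1.04 ± 0.12 with IE but had 1 of its 4 readings there below the background test, and IE over ME was -0.36 ± 0.62. Mif, the cytokine ligand of Cd74, read -0.07 ± 0.05 with ME and -0.10 ± 0.02 with IE, and was also picked after its values were seen.

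Markers of cells outside the parenchyma were read in the same comparisons. Of 11 listed genes of border macrophages, 9 had probes. With ME, 7 of 13 probes were above 0 on both arrays, beside 12.8% of all probes, and 1 below, beside 14.2%. The 13 probes had a median ratio of 0.18 for ME over CONT, 0.01 for IE over CONT and -0.12 for IE over ME. By array the medians were 0.25 and 0.02 with ME, 0.06 and -0.06 with IE, and -0.15 and -0.08 in IE vs ME. Well above background were 7, 6 and 5 of the 13 probes in turn, with medians of 0.18, 0.01 and -0.12. None of the 13 was called (0 probes). On the first slide the summed signal of the 13 probes was 1318 to 1392 units in 4 CONT readings. It was 1354 to 1393 there in 2 IE readings and 1446 to 1645 in 2 ME readings. On the second slide the sum was 926 to 994 in IE and 995 to 1101 in ME. Mrc1, the mannose receptor, had 0.53 and 0.28 with ME (0.41 ± 0.18) at A_44_P635138, and Pf4 had 0.25 and 0.18 (0.22 ± 0.05), both named after their values were seen. The probes of Siglec1 and Cd163, defining genes of these cells, had at most 2 of 4 readings above background in any comparison.

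For meningeal genes, a list written with earlier results of these data known, the difference was far larger. Of 18 listed genes 17 had probes, and all 23 probes were above 0 on both arrays with ME, with a median of 0.90. Called with ME were 15 of the 23 probes, from 13 genes, beside 0.122% of all probes. Among them were the collagen genes Col1a1, Col1a2 and Col3a1. With IE 0 were called (median -0.01), beside 0.0293% of all probes. In IE vs ME 12 probes of 10 genes were called lower (median -0.78), where 0.0732% of all probes were called. The summed signal of the 23 probes was 24295 to 25193 units in CONT, 23795 to 23919 in IE and 48212 to 51238 in ME on the first slide. The choroid plexus list went another way, with medians of 0.07 with ME and 0.33 with IE over its 17 probes. Of these, 3 and 5 were called, beside 0.122% and 0.0293% of all probes. In each of these swaps 8 of the 17 were well above background, with medians of 0.10 with ME and 0.28 with IE. Aif1 and the C1q chains stayed near 0 in the same hybridizations. Which cells the Cd74 ratio came from was not tested.

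**Figure D5:**
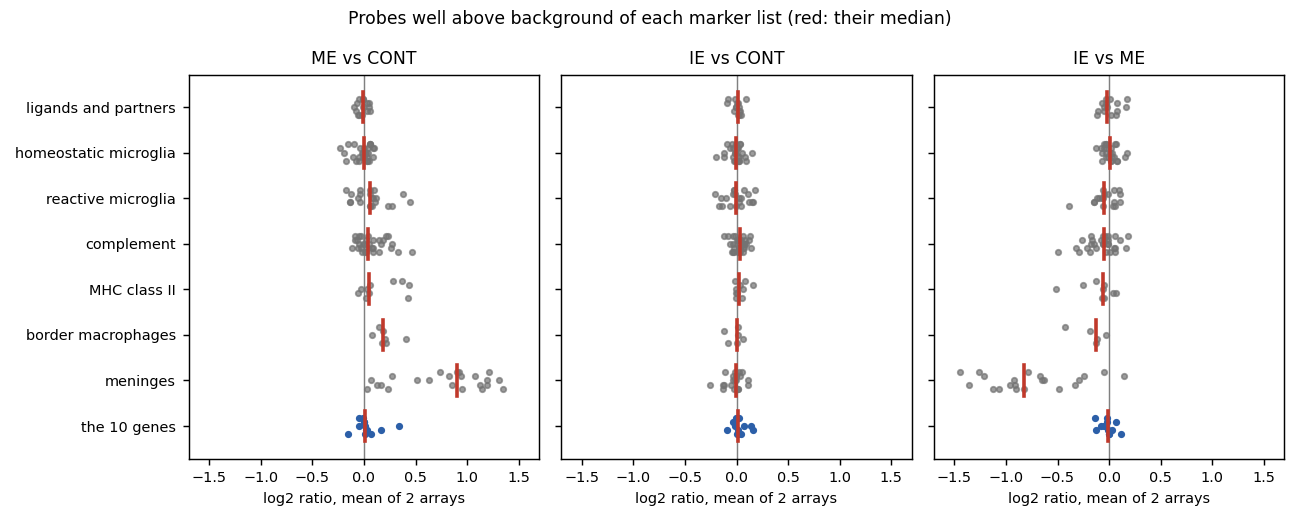
Mean log2 ratio of each probe well above background (points) by marker list, with the list's median in red and the 10 genes in blue at the bottom, for the 3 comparisons. Meningeal probes lie to the right with ME and to the left in IE vs ME, border macrophage probes show smaller values on the same sides, the homeostatic microglia list centres on 0, and the reactive microglia list has medians of 0.06, -0.01 and -0.05 in the 3 panels.

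Other genes of microglia were also read. Of 30 homeostatic genes 23 had probes, and the 30 probes had medians of -0.00 for ME, -0.00 for IE and -0.03 for IE over ME, with 0 called. P2ry12, the purinergic receptor of ramified microglia, was at -0.02 ± 0.01, -0.01 ± 0.00 and 0.03 ± 0.10. Tyrobp, the adaptor that signals for Trem2, was at -0.00 ± 0.01 and -0.01 ± 0.15 with ME over its 2 probes. Trem2 itself was at -0.08 ± 0.13 with ME and -0.02 ± 0.05 with IE, and Spi1, the myeloid transcription factor PU.1, at 0.10 ± 0.39 with ME. Of 30 genes of reactive microglia 27 had 34 probes. Well above background were 22 of them in ME vs CONT, 21 in IE vs CONT and 18 in IE vs ME. With ME 10 were above and 4 below 0 on both arrays (median 0.06), beside 12.8% and 14.2% of all probes. With IE the counts were 4 and 4 (median -0.01), beside 13.5% and 13%. In IE vs ME they were 2 and 7, beside 11% and 12%. The median there was -0.07 over all 34, 0.06 on array 1 and -0.18 on array 2, and -0.05 over those above background. None of the 34 was called in any comparison (0 probes).

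Downstream of C1q, the complement list had 34 of 36 genes with 49 probes and 0 called. Its medians were 0.02 for ME, 0.03 for IE and -0.06 for IE over ME. With ME 15 of 49 probes were above 0 on both arrays and 7 below, where the shares of all probes were 12.8% and 14.2%. With IE the counts were 13 above and 5 below, beside 13.5% and 13% of all probes, and in IE vs ME 4 above and 16 below, beside 11% and 12%. C1r, the protease that C1q activates first, was at 0.08 and 0.25 with ME (0.16 ± 0.12) and 0.08 ± 0.02 with IE. C1s, its substrate, was at -0.05 ± 0.07 and 0.01 ± 0.22 with ME over 2 probes, and C3, the central component, at -0.01 ± 0.05 with ME and 0.00 ± 0.06 with IE. Chosen after their values were seen, Cfd, the factor D of the alternative pathway, read 0.47 ± 0.03 with ME and -0.50 ± 0.06 in IE over ME, and Serping1, the C1 inhibitor, 0.33 ± 0.11 and -0.30 ± 0.06. Both lay above the C1q chains in ME vs CONT and were near 0 in IE vs CONT, at 0.03 ± 0.05 and 0.01 ± 0.08. Which cells these ratios came from was not tested.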

How the data were processed

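Hippocampal RNA, pooled by group, was compared on 6 2-colour arrays in 3 dye-swap pairs. The sample records name pools 1 and 2 for the arrays of a swap, while the methods describe 1 pool of 5 rats per group, which was followed. The paper gives tissue collection as 2 days after training. Per the file headers, the authors used Agilent Feature Extraction 9.5.3.1 on the first slide and 11.0.1.1 on the second. The deposited log10 ratio is that of Cy5 over Cy3 after background subtraction and LOWESS, the deposited p-value is the software's for 1 spot, and the deposited intensity values are linear signals. The deposited value table holds log10 ratios of processed signals, with array 2 of every swap reversed in sign (100% of spots within 0.001). Its scale and direction were thereby settled, and its column medians, in array order, were -0.00996, 0.00812, -0.00940, 0.00872, 0.00757 and -0.00105.

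Control features (1639 of 45018) and outlier spots (92 to 302 per array) were left out. Log10 ratios were turned to log2 of the first-named over the second pool, spots of a probe were averaged and the p-value was taken as the median over spots. Where both signals are near background the software sets the ratio to 0. Genes were named from the array and, for 10735 probes, through RefSeq transcript accessions (GRCr8, names only). On each array 66.5% to 74.4% of spots were well above background in both channels, and the number of arrays limits the precision. Alternatives were normexp (offset 50) with loess and a joint fit in limma 3.58.1 (R 4.3.3), with other limits; Python 3.11.15 and pandas 2.3.3 did the rest. The 10 genes, the lists and the tests were chosen with earlier results of these data known. The naming rule took the 10 genes, listed genes with a call, and Csf1, Il34, Cx3cl1, Itgb2, C3, C1r, C1s, Spi1, Tyrobp, Trem2 and P2ry12. Genes outside this rule (RT1-Bb, RT1-Da, RT1-DMa, Mif, Mrc1, Pf4, Siglec1, Cd163, Cfd and Serping1) were named after their values were seen. A planned match of probes to protein sequences was not run.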

Additional observations from a re-analysis of the deposited data

How the results depend on the processing

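No paired analysis was possible because the arrays compare single pools of RNA. The count of called probes among the 13 stayed at 0 under every alternative except single arrays of IE vs ME. There 1 probe was called on either array alone, Ptprc A_44_P236144, with opposite directions (range 1 to 1 without replicate 1 or 2), and it had 1 of 12 readings above background. The median over the 13 probes ran from -0.0445 to 0.0499 in ME vs CONT, -0.00996 to 0.0887 in IE vs CONT and -0.0834 to 0.0496 in IE vs ME when either array was left out, and in each comparison the sign differed between the arrays. Under the other alternatives no median moved by more than its spread between arrays. Over all probes, calls for ME against CONT, IE against CONT and IE against ME numbered 50, 12 and 30, and became 404, 273 and 435 without the p threshold, 15, 6 and 22 with normexp and loess, 20, 6 and 18 without background subtraction, and 96, 49 and 165 by the mean ratio. From array 2 alone they were 649, 585 and 3172, and from array 1 alone 878, 758 and 3226; the cause was not tested. Of 48 single ratios of the members, 6 moved by more than the SD with normexp and loess, 7 without background subtraction and 5 in the joint fit. Signals near background limit Ptprc and 1 Csf1r probe most.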
